A study of Mus musculus with 24 samples.

Results

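The genes of the integrated stress response described here are Atf4, Atf3, Ddit3, Trib3, Chac1, Asns, Fgf21, Gdf15, Ppp1r15a and Sesn2. They were taken by symbol from the table of raw counts, in which all 10 of 10 names were found among 24537 genes, and each was read in all 24 libraries. RNA was sequenced from whole extensor digitorum longus (EDL) muscle, which is predominantly fast-twitch, and from soleus (SOL) muscle, which is predominantly slow-twitch, of mice aged 2 months. The Cre+ mice (Acta1-Cre+/4Fhet) carry a cassette of Oct4, Sox2, Klf4 and c-Myc (OSKM, 4F) in the heterozygous state, with the rtTA activator behind a LoxP-STOP-LoxP block that Acta1-Cre removes in myofibers. The controls were Cre- mice (Acta1-Cre-/4Fhet), which carry the same cassette without the recombinase. Every group drank water with 1 mg/ml doxycycline (Dox), so no group was without Dox, and muscles were taken after 2.5 days, after 5.5 days or after 8.5 days. Each of the 12 combinations of muscle, genotype and time had 2 libraries. The comparison asks what induction of OSKM in myofibers did to this group of genes in a fast and in a slow muscle.

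In the integrated stress response, kinases that sense amino acid shortage, misfolded protein, viral RNA or heme deficiency phosphorylate the initiation factor eIF2. General translation then drops while the mRNA of the transcription factor ATF4 is translated more, so that ATF4 protein can increase without any change of its mRNA. ATF4 raises genes of amino acid supply and a second layer of regulators such as CHOP, the product of Ddit3, and it restores translation through GADD34, the product of Ppp1r15a. In skeletal muscle the response is best known for the secreted factors FGF21 and GDF15, which are released under mitochondrial stress.

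Libraries held 36088781 to 54679082 counts in all, which puts the limit that a count of 0 allows (3 counts) between 0.0549 and 0.0831 CPM (counts scaled to the total of the library). Intervals and limits of this kind cover counting error only. The libraries stood as labelled at 2.5 and 8.5 days: the FPKM of the 4 OSKM genes summed to between 74.5 and 261 in Cre+ EDL and between 31.3 and 57.8 in Cre+ SOL muscles, against 9.48 to 25.2 in the Cre- muscles. All 4 passed the test described below in EDL at both times, but in SOL only Pou5f1 (Oct4) and Sox2 did. The study reports similar Klf4 in Cre+ and Cre- SOL muscles, so the muscles differed in the factors induced. At 5.5 days the libraries labelled Cre+ did not all stand apart, with sums of 13.1 and 109 in EDL and between 8.43 and 15.4 in SOL, against 11.5 to 16.1 in the Cre- libraries. That time point, which the study left out of its own tests, is therefore given separately. Fibre genes were abundant everywhere, and the 10 fibre markers summed to 47419.5 FPKM or more in each library. Liver transcripts, which muscle should lack, summed to between 54.7 and 153 FPKM in the 2 SOL Cre- libraries of 8.5 days and to 20.8 or less elsewhere. The study calls the replicates biologically independent, while the labels name no animals, so p values measure the spread between these libraries.

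FPKM (counts scaled to exon length and to the total of the library) is the level used to compare genes with each other. Fold changes come from edgeR's quasi-likelihood test, which scales libraries by TMM so that most genes are centred on no change. A gene was called when the Benjamini-Hochberg adjusted p was under 0.05 and the absolute log2 fold change over 0.5. Of the 10 genes, 9 passed the filter on low counts, and Fgf21 did not.

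The 5 genes below are shown because their region before the transcription start holds letters that ATF4 or related factors are known to bind. The searched composite core of ATF4 and C/EBP was TGATGNAA, and the cAMP response element was TGACGTCA, each read on both strands in windows of 300 bases (250 before and 50 after the start) from RefSeq, build GRCm38.p6. Capitals mark the core, which stands in reverse in Atf3, Chac1 and Fgf21. Each stretch is read 5′ to 3′ on the strand of the gene and ends at or before the last base ahead of the transcription start.
Asns, chr6:7693210-7693278, minus strand: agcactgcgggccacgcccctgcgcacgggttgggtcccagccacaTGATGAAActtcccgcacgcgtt
Chac1, chr2:119351003-119351102, plus strand: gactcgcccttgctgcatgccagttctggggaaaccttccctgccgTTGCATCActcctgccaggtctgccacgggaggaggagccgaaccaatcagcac
Atf3, chr1:191183390-191183489, minus strand: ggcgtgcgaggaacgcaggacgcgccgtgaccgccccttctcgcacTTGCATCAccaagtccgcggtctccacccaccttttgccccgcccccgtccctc
Fgf21, chr7:45615576-45615675, minus strand: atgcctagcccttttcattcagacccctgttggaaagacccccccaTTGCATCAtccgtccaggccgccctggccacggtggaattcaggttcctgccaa
Ppp1r15a, chr7:45526269-45526326, minus strand: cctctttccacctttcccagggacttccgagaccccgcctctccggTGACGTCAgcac

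All 10 genes had a window in the table, 11 windows in all since Gdf15 has a pair of starts. The composite core was present in 5 genes, at -23 to -16 in Asns, -193 to -186 in Chac1, -110 to -103 in Atf3 and -139 to -132 in Fgf21, counted with -1 as the base before the start, and at 15 to 22 behind the start in Trib3. Positions are counted from the RefSeq start, which for Asns is base 7693209, while the deposited counts place its start at 7693182. It was present in 3.97% of 32851 windows of all genes and in 2.31% of the 14840 windows of genes that were tested. The cAMP response element was found in Ppp1r15a alone of the 10, at -12 to -5, and in 1.79% of all windows. The E-box CACGTG, which c-Myc can bind, was found in Fgf21 and Gdf15 and in 7.15% of all windows, and the octamer ATGCAAAT, bound by Oct4, was in 0 of the 10 and in 1.74% of all windows. A match describes the letters only.

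Among the genes of this response, Asns rose and Ddit3 fell in Cre+ EDL muscles at 2.5 days, and Chac1 fell in Cre+ EDL muscles at 8.5 days. Atf4 and the other genes tested did not pass the test in either muscle at either time. At 2.5 days in EDL muscles, 2 of 9 were called, 1 higher and 1 lower, where 24% of all 15372 genes tested were called (13.8% higher and 10.2% lower). At 8.5 days in EDL muscles, 1 of 9 was called, where 14.1% of all genes were called (7.63% higher and 6.5% lower). In SOL muscles 0 of 9 were called at 2.5 days and 0 of 9 at 8.5 days, where 0.384% and 0.631% of all genes were called. At an unadjusted p under 0.05 there were 2 of the 9 in SOL muscles at 2.5 days (Atf3 and Ddit3) and 3 at 8.5 days (Atf4, Ddit3 and Ppp1r15a), all lower in Cre+. Of all 15372 genes, 2053 at 2.5 days and 1015 at 8.5 days were under that cutoff in SOL. DESeq2 on the same 16 libraries also called 0 in SOL, and on the 4 libraries of each comparison alone it called Atf3 at 2.5 days and Chac1 at 8.5 days, both lower in Cre+. The median log2 fold change of the 9 genes in EDL muscles was -0.25 at 2.5 days and -0.28 at 8.5 days, against -0.05 and -0.02 for all genes. At 2.5 days in EDL 2 of the 9 values were positive and 7 negative, and with library size alone 6 were positive and 3 negative (median 0.08).

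**Figure D1:**
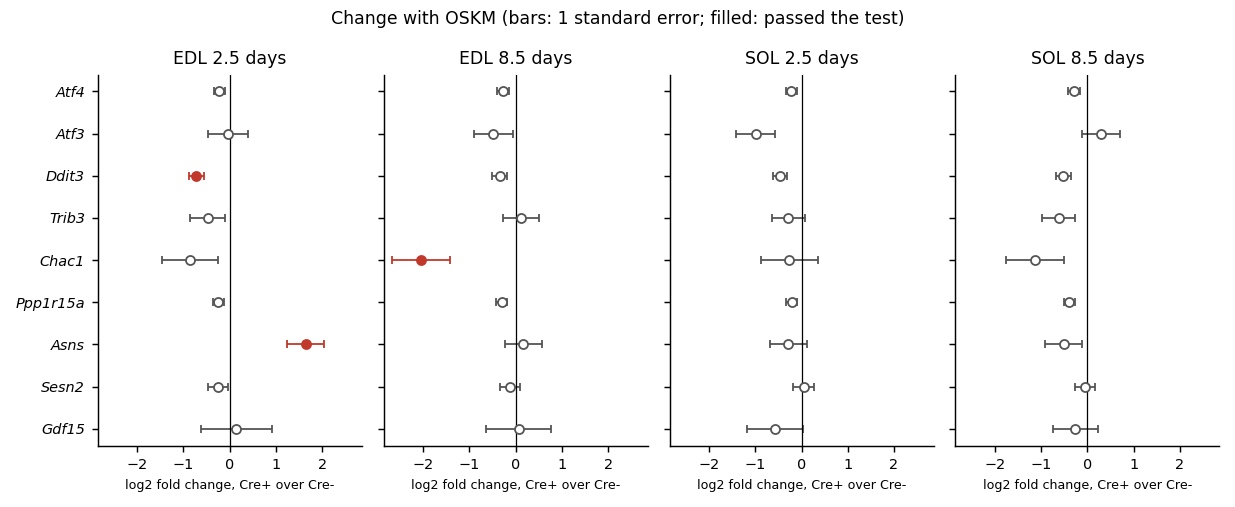
Log2 fold change of Cre+ over Cre- (x axis, log2 units, bars of 1 standard error) for the 9 genes tested (y axis), in EDL and SOL muscles at 2.5 and 8.5 days. Filled points passed the test: Asns at 1.65 and Ddit3 at -0.72 in EDL at 2.5 days, and Chac1 at -2.05 in EDL at 8.5 days. With scaling by library size alone, Atf4, Atf3, Ppp1r15a and Sesn2 at 2.5 days and Sesn2 at 8.5 days in EDL, all drawn open, lie above 0.

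The scale matters for small changes here. With library size alone, without TMM, the median of all genes moved to 0.28 in EDL and 0.18 in SOL at 2.5 days, to 0.16 in EDL and 0.03 in SOL at 8.5 days, and to 0.13 in EDL at 5.5 days. The genes called in EDL at 2.5 days were 2118 higher and 1566 lower with TMM and 4207 higher and 610 lower with library size alone, and at 8.5 days 1173 and 999 against 1956 and 542. Of 10 fibre markers 5 fell in Cre+ EDL at 2.5 days and 4 at 8.5 days, and their sum was 47662 to 56080 FPKM in Cre+ against 81412 to 87529 in Cre- EDL at 2.5 days and 47419.5 to 57293 against 78209 to 83928 at 8.5 days. Markers of satellite cells summed to 46.9 to 51.6 FPKM in Cre+ and to 20.9 to 23.6 in Cre- EDL at 2.5 days, and to 54.6 to 56.8 against 26.0 to 32.4 at 8.5 days, and of the 6 only Sdc4, which other cells also express, was called. Also at 8.5 days in EDL, markers of tendon summed to 829 to 959 FPKM in Cre+ and 492 to 602 in Cre-, of fibroblasts to 1334 to 1764 and 1099 to 1135, and of macrophages to 128 to 168 and 107 to 113, with none called. Immediate early genes summed to 180 to 200 FPKM in Cre+ and to 244 to 268 in Cre- EDL at 2.5 days, and liver transcripts to 13.9 to 14.4 in Cre+ and 16.6 to 17.7 in Cre- EDL at 8.5 days. Endothelial markers summed to 68.9 to 70.9 FPKM in Cre+ and 75.0 to 83.3 in Cre- EDL at 2.5 days, with Cdh5 and Pecam1 called. At 8.5 days these sums overlapped (89.4 to 102 and 84.7 to 98.6). Of the liver list, Ahsg was called in EDL at 2.5 days. In bulk muscle, fewer cells of a type and less RNA per cell cannot be told apart, and the part of these marker lists in the changes below was not tested.

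Atf4 encodes the central transcription factor and lies on chr15:80255184-80257545 of mm10 (plus strand, NM_009716). It was the most abundant of the 10 genes, with 116 to 191 FPKM over the 24 libraries. In EDL muscles at 2.5 days the Cre- libraries had 123 and 117 FPKM and the Cre+ libraries 116 and 143. At 8.5 days these were 127 and 140 in Cre- and 120 and 130 in Cre+. The groups overlapped at both times. The fitted log2 fold change was -0.23 (SE 0.13) at 2.5 days and -0.28 (SE 0.13) at 8.5 days, and at 2.5 days it was 0.11 with library size alone, so that its sign depends on the scaling. In SOL muscles it was -0.22 (SE 0.13) at 2.5 days and -0.28 (SE 0.12) at 8.5 days. Over these 4 comparisons the adjusted p (edgeR) was between 0.161 and 0.71.

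Asns encodes asparagine synthetase, which makes asparagine from aspartate and glutamine and is a classical ATF4 target. It lies on chr6:7675171-7693182 (minus strand, NM_012055), and its core is the first sequence printed above. In EDL muscles at 2.5 days Asns had 0.769 and 1.87 FPKM in Cre- and 3.8 and 6.75 in Cre+. The 2 groups did not overlap, and both were spread widely. The higher Cre+ library, replicate 2, was also the one with more of the Oct4 gene Pou5f1, 70.5 FPKM against 17.5 in replicate 1. With 2 libraries, a link of Asns with the level of OSKM was not tested. Asns rose by 1.65 on the log2 scale (SE 0.40, n = 2 against 2), with an adjusted p of 0.00865 (edgeR). Without Cre- replicate 1 the log2 fold change was 1.13 and the adjusted p 0.0769, and without Cre+ replicate 2 it was 1.23 and 0.0966, so that the call ended on leaving out either. In a fit of these 4 libraries alone the adjusted p was 0.0656 by the same test.

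At 8.5 days Asns had 0.97 and 1.82 FPKM in Cre- EDL and 2.13 and 1.44 in Cre+ EDL, and the groups overlapped, with a log2 fold change of 0.16 (SE 0.40). The difference of the change between the days, -1.48 (SE 0.56), did not pass (adjusted p = 0.432, edgeR), and 0% of all genes were called in that test. In SOL muscles the levels at 2.5 days were 1.47 and 1.95 FPKM in Cre- and 1.47 and 1.66 in Cre+. These overlapped, and the change was -0.28 (SE 0.40). At 8.5 days SOL muscles had 1.99 and 2.55 FPKM in Cre- and 1.64 and 1.62 in Cre+. The change at 2.5 days was larger in EDL than in SOL by 1.93 (SE 0.57), with an adjusted p of 0.0733 (edgeR), where 4.25% of all genes were called. With the same-numbered EDL and SOL libraries as a replicate block, the difference was 1.98 (SE 0.40) with an adjusted p of 0.0208. It was also called with DESeq2, without the filter on low counts, with library size alone and in the fit of all 24 libraries.

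Ddit3 encodes CHOP, a transcription factor that acts with ATF4 and in lasting stress favours cell death. It lies on chr10:127290793-127296288 (plus strand, NM_007837). EDL muscles at 2.5 days had 27.1 and 31.5 FPKM in Cre- and 22.8 and 21.9 in Cre+. The Cre+ libraries were both below the Cre- libraries. Ddit3 fell by 0.72 on the log2 scale (SE 0.16), with an adjusted p of 0.00517 (edgeR). With library size alone the log2 fold change was -0.39 and below the size required. Without Cre+ replicate 2 the value was -0.65 (adjusted p = 0.0541, edgeR) and without Cre- replicate 2 it was -0.58 (adjusted p = 0.0584, edgeR), which ended the call.

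At 8.5 days Ddit3 had 20.8 and 19.2 FPKM in Cre- EDL and 16.4 and 19.2 in Cre+ EDL, with a log2 fold change of -0.34 (SE 0.16). SOL muscles had 39.1 and 42.8 FPKM in Cre- and 33 and 32.9 in Cre+ at 2.5 days. At 8.5 days they had 41.9 and 41.1 in Cre- and 26 and 33.2 in Cre+. Cre+ SOL libraries were below Cre- SOL libraries at both times, but the changes of -0.46 (SE 0.16) and -0.52 (SE 0.16) did not pass, with adjusted p of 0.231 and 0.328 (edgeR). Ddit3 overlaps Mars, the methionyl-tRNA synthetase gene on the opposite strand. The libraries are labelled stranded, while the strand setting of the counting is not stated, so reads of the pair may not be fully separated. Mars was at 21.9 to 56.4 FPKM, and its log2 fold change in EDL at 2.5 days was 0.28 (SE 0.18), not called.

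Chac1 encodes a gamma-glutamylcyclotransferase that degrades glutathione, and it is among the strongest targets of ATF4 and CHOP. It lies on chr2:119351242-119354327 (plus strand, NM_026929). EDL muscles at 8.5 days had 26.7 and 26.9 FPKM in Cre- and 6.57 and 8.05 in Cre+. The groups were far apart at this time. Chac1 fell by 2.05 on the log2 scale (SE 0.63), with an adjusted p of 0.0435 (edgeR). Leaving out any of the 4 libraries ended the call, with log2 fold changes from -2.26 to -1.86 and adjusted p from 0.0842 to 0.256 by the same test. In the fit of these 4 libraries alone the SE was 0.19 and the adjusted p 0.00246.

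Chac1 varied more between replicates at 2.5 days. It had 34.1 and 13.2 FPKM in Cre- EDL and 25.8 and 6.04 in Cre+ EDL. There the groups overlapped, and the change was -0.87 (SE 0.61). In each genotype at this time replicate 1 was the higher library. SOL muscles had 13.4 and 4.94 FPKM in Cre- and 7.35 and 9.72 in Cre+ at 2.5 days. At 8.5 days they had 9.09 and 7.98 in Cre- and 3.05 and 4.94 in Cre+. The change in SOL at 8.5 days was -1.13 (SE 0.63), which was not called, and the difference between muscles of -0.92 (SE 0.87) was not called either, where 0.592% of all genes were. The log2 fold change of Chac1 was negative in all 6 comparisons of Cre+ with Cre-, the pair at 5.5 days included, and called in 1. Its groups overlapped in EDL at 2.5 days and in SOL at 2.5 and 5.5 days. At 5.5 days the libraries labelled Cre+ did not all stand apart in OSKM.

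Trib3, a pseudokinase induced by CHOP that dampens ATF4 and AKT signalling, lies on chr2:152337425-152344060 (minus strand, NM_175093). It had 0.808 and 0.664 FPKM in Cre- EDL and 0.603 and 0.728 in Cre+ EDL at 2.5 days, and 0.501 and 0.519 against 0.479 and 0.773 at 8.5 days. Both pairs of groups overlapped. The largest of its 4 changes was in SOL muscles at 8.5 days, where Cre- had 1.99 and 1.96 FPKM and Cre+ 1.01 and 1.6, a log2 fold change of -0.62 (SE 0.35) that was not called.

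Atf3, an early stress factor of the ATF/CREB family, lies on chr1:191170297-191183333 (minus strand, NM_007498). In SOL muscles at 2.5 days it had 14.4 and 13.7 FPKM in Cre- and 7.21 and 8.55 in Cre+. Although these groups did not overlap, the change of -0.99 (SE 0.42) did not pass in the shared fit (adjusted p = 0.333, edgeR). In a fit of those 4 libraries alone its SE was 0.14 and it passed (adjusted p = 0.0373, edgeR). At 8.5 days SOL libraries had 6.64 and 19.4 FPKM in Cre- and 20.1 and 12 in Cre+. The spread within a group was then as large as any difference. In EDL muscles Atf3 stayed between 2.33 and 6.08 FPKM at these 2 times, with log2 fold changes of -0.03 (SE 0.43) and -0.48 (SE 0.43).

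Ppp1r15a (GADD34), the regulatory subunit that lets phosphatase 1 remove the phosphate from eIF2, lies on chr7:45522917-45526268 (minus strand, NM_008654). It had 13.1 and 13.1 FPKM in Cre- EDL and 13.6 and 14 in Cre+ EDL at 2.5 days. The Cre+ libraries were higher in FPKM, while the log2 fold change after TMM was -0.25 (SE 0.12) and with library size alone 0.08, so no direction holds across scalings. In the other 3 comparisons it was -0.30, -0.21 and -0.39, none called. Ppp1r15a shares bases with Tulp2 on the opposite strand, which had at most 6 counts in any library.

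Sesn2, sestrin 2, which restrains mTORC1 when leucine is short, lies on chr4:132492807-132510456 (minus strand, NM_144907). Its log2 fold changes were -0.26, -0.12, 0.05 and -0.05 in EDL at 2.5 and 8.5 days and SOL at 2.5 and 8.5 days, with SE of 0.21 to 0.22 and none called, and the sign in EDL turned at both times with library size alone. Gdf15, a secreted factor that acts on appetite through a hindbrain receptor, lies on chr8:70629393-70632456 (minus strand, NM_001330687). It was barely detected in EDL muscles, with 1 to 10 counts per library, and its fold changes in EDL had SE of 0.71 to 0.77. At this depth a change of Gdf15 in EDL was not detectable unless large.

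Fgf21, the other secreted factor of the response, lies on chr7:45613890-45615490 (minus strand, NM_020013). It was at 0 in 20 of 24 libraries and had at most 3 counts in the others. The libraries with a count were Cre- EDL at 2.5 days (replicate 2, 1 count), Cre- EDL and Cre+ EDL at 8.5 days (replicate 1 of each, 1 count) and Cre- SOL at 8.5 days (replicate 2, 3 counts). The last of these was also the library with the most liver transcripts, 153 FPKM, and their part in the result was not tested. No library exceeded the limit of 3 counts, so no fold change is given.

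**Figure D2:**
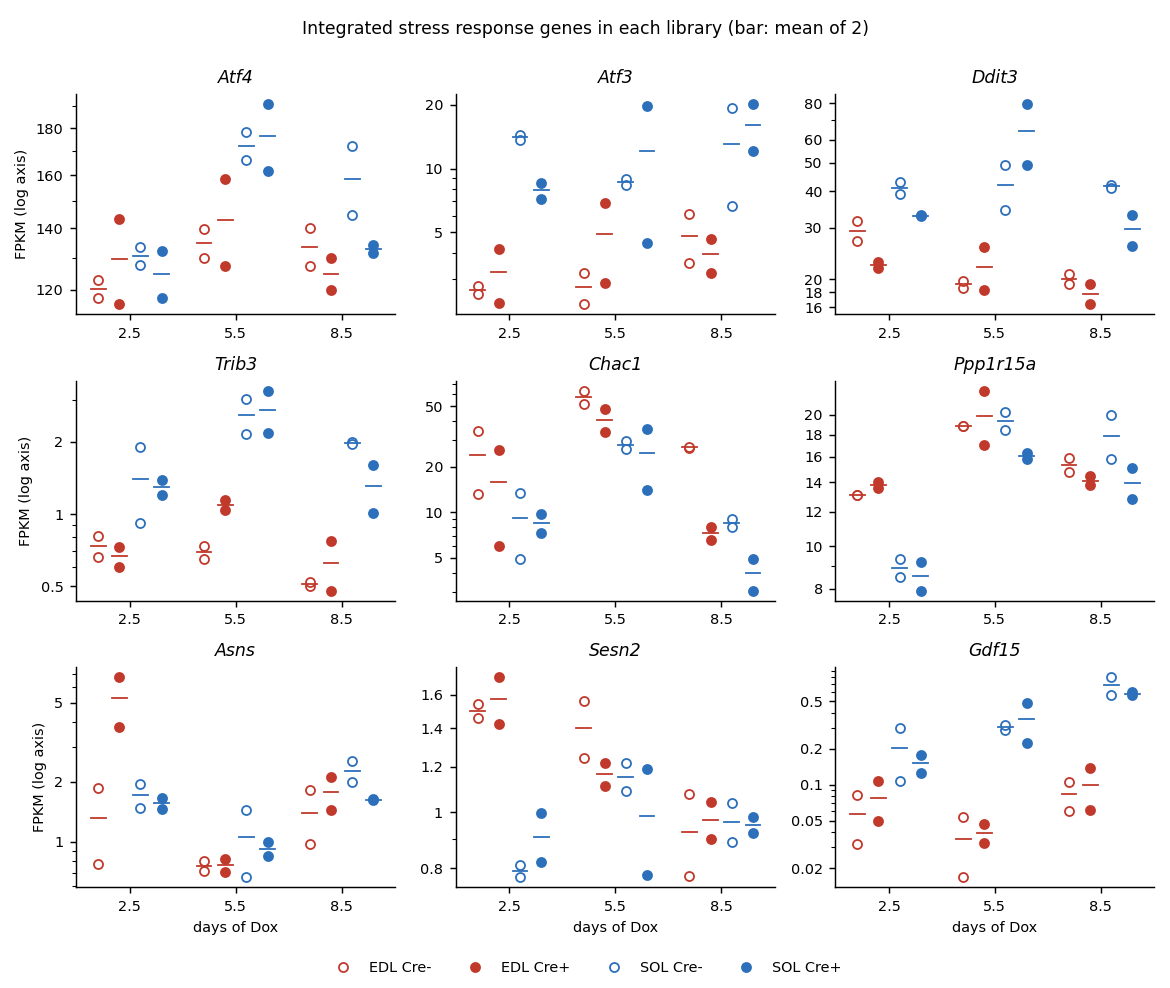
FPKM (log axis, each panel with its own range) of the 9 genes tested against days of Dox, with 1 point per library, open for Cre- and filled for Cre+, red for EDL and blue for SOL, and a bar at the mean of 2. Asns in Cre+ EDL at 2.5 days (3.8 and 6.75) lies above every other library, and Chac1 in Cre+ EDL at 8.5 days (6.57 and 8.05) lies below Cre- EDL (26.7 and 26.9). Within each genotype and day, Ddit3, Trib3 and Gdf15 are higher in both SOL libraries than in both EDL libraries.

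In SOL muscles at 8.5 days, 6 of the 9 genes (Atf4, Ddit3, Trib3, Chac1, Asns and Ppp1r15a) had both Cre+ libraries below both Cre- libraries in FPKM, and none had them above. Over all genes tested, 35.8% did not overlap, 14.5% below and 21.3% above. The log2 fold changes of the 6 genes ran from -1.13 to -0.28, and 0 were called. Of the 4 SOL libraries at that time, the Cre- libraries also held the liver transcripts, 54.7 to 153 FPKM against 17.3 to 20.8 in Cre+, and their part in the result was not tested. Without Cre- replicate 2, the library with the most of them, the median log2 fold change of the 9 genes was -0.38, and it was -0.39 with all libraries. The Cre- library that remained still held 54.7 FPKM of liver transcripts, so this value cannot show their part. Neutrophil markers summed to 1.68 to 22.9 FPKM in Cre- and 2.37 to 2.44 in Cre+ SOL at 8.5 days, and their part was not tested. In SOL at 2.5 days 3 of 9 did not overlap (54.3% of all genes), and in EDL 3 of 9 at 2.5 days (67.5% of all genes) and 2 of 9 at 8.5 days (55.8% of all genes).

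At 5.5 days 0 of 9 genes were called in EDL, where 0.304% of 15478 genes were called, and 0 of 9 in SOL, where 0% were called. At an unadjusted p under 0.05 there were 0 of the 9 in EDL and 2 in SOL, Ddit3 and Ppp1r15a, and DESeq2 called 0 in both. Of all 15478 genes, 1307 in EDL and 597 in SOL were under that cutoff. Asns had 0.706 and 0.82 FPKM in the EDL libraries labelled Cre+ and 0.717 and 0.799 in Cre- EDL, and these overlapped. The highest Ddit3 of the whole series, 79.3 FPKM, was in a SOL library labelled Cre+ at this time.

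More of these genes were called between the muscles than between the genotypes. Ddit3, Trib3 and Gdf15 were higher in SOL than in the same-numbered EDL library in 12 of 12 pairs, Atf4 and Atf3 in 11 of 12, while Chac1 was higher in EDL in 11 of 12. Called genes numbered 3 of 9 in Cre- muscles at 2.5 days (16% of all genes) and 4 of 9 in Cre- muscles at 8.5 days (18.2% of all genes, 2 to 4 of the 9 on leaving out a library). In Cre+ muscles they were 6 of 9 at 2.5 days (28.4%, 2 to 4 of the 9 on leaving out a library, 2 without EDL replicate 2) and 4 of 9 at 8.5 days (18.2%, 2 to 4 of the 9). Adipocyte markers summed to 397 to 766 FPKM in the SOL libraries of these 2 times and to 240 to 351 in the EDL libraries, and their part in the result was not tested.

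Atf3 had 2.78 and 2.57 FPKM in Cre- EDL and 14.4 and 13.7 in Cre- SOL at 2.5 days, far apart. It was called at both times in both genotypes, with log2 fold changes of EDL over SOL of -2.29 (SE 0.44) and -1.32 (SE 0.43) in Cre- and -1.34 (SE 0.43) and -2.09 (SE 0.43) in Cre+. The adjusted p ran from 0.0031 to 0.0446 (edgeR). In Cre- at 8.5 days the call ended with the number within a day as a replicate block (-1.29, adjusted p = 0.0612 in edgeR), in the fit of all 24 libraries and in that of the 4 libraries alone. The call in Cre- at 2.5 days did not end on leaving out any of its 4 libraries, while each of the other calls ended on leaving out at least 1. The value in Cre- at 8.5 days was -0.40 without SOL replicate 2, the library with 153 FPKM of liver transcripts. Median EDL over SOL across the 12 pairs was 0.273 for Atf3.

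Ddit3 was lower in EDL, with log2 fold changes of -0.97 (SE 0.16) in Cre- at 8.5 days, -0.64 (SE 0.16) in Cre+ at 2.5 days and -0.79 (SE 0.16) in Cre+ at 8.5 days, and the value of -0.38 in Cre- at 2.5 days was not called. Trib3 was lower in EDL as well, with -1.87 (SE 0.38) in Cre- at 8.5 days, -1.04 (SE 0.37) in Cre+ at 2.5 days and -1.12 (SE 0.37) in Cre+ at 8.5 days. The Trib3 calls in Cre+ rested on adjusted p of 0.0469 and 0.0466 (edgeR), and the one at 2.5 days ended on leaving out any of its 4 libraries. In Cre- at 8.5 days neither call ended on leaving out a library.

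Gdf15 had 0.0604 and 0.105 FPKM in Cre- EDL and 0.797 and 0.559 in Cre- SOL at 8.5 days. It was lower in EDL, with a log2 fold change of -2.91 (SE 0.61, adjusted p = 0.00535 in edgeR) in Cre- and of -2.57 (SE 0.57, adjusted p = 0.00713 in the same test) in Cre+. These rest on few counts, at most 42 in any library. Without Cre- EDL replicate 1 the adjusted p in Cre- was 0.0609, and without Cre+ EDL replicate 2 that in Cre+ was 0.0776 (edgeR).

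Chac1 went the other way, with 26.7 and 26.9 FPKM in Cre- EDL and 9.09 and 7.98 in Cre- SOL at 8.5 days. The log2 fold change of EDL over SOL was 1.73 (SE 0.62), and at 2.5 days in Cre- it was 1.45 (SE 0.62), and neither passed in the fit without a block. With the same-numbered libraries as a replicate block both passed, with 1.74 (SE 0.44, adjusted p = 0.0188 in edgeR) and 1.48 (SE 0.44, adjusted p = 0.0393 in edgeR). Ppp1r15a and Sesn2 were called higher in EDL at 2.5 days, Ppp1r15a by 0.66 (SE 0.12) in Cre- and 0.62 (SE 0.12) in Cre+, and Sesn2 by 1.02 (SE 0.22) and 0.72 (SE 0.22). Sesn2 had 1.46 and 1.54 FPKM in Cre- EDL and 0.773 and 0.811 in Cre- SOL at that time, groups that did not overlap. At 8.5 days their values lay between -0.13 and 0.04, not called, and the difference between the days was not tested for this comparison. Asns was higher in EDL in Cre+ at 2.5 days, by 1.67 (SE 0.40), a call that ended without SOL replicate 1 or EDL replicate 2, and its other 3 values lay between -0.61 and 0.07. The call of Sesn2 in Cre+ ended without EDL replicate 1 or SOL replicate 2, and that of Ppp1r15a on leaving out none.

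**Figure D3:**
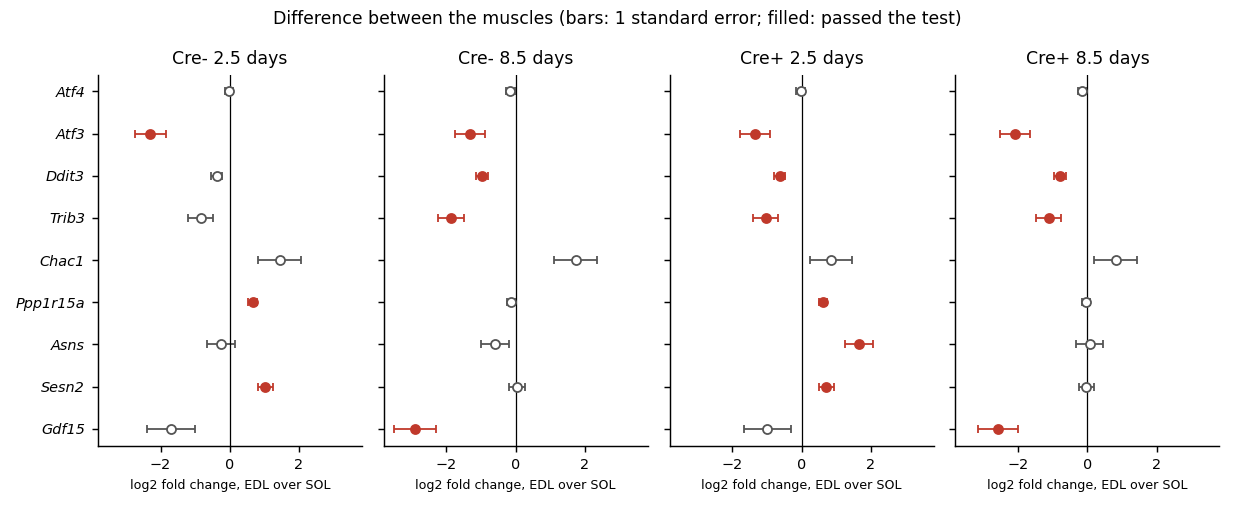
Log2 fold change of EDL over SOL (x axis, log2 units, bars of 1 standard error) for the 9 genes tested (y axis) in Cre- and Cre+ muscles at 2.5 and 8.5 days, filled where the test was passed. Atf3 lies at or below -1.32 in all 4 panels, Gdf15 at -2.91 and -2.57 at 8.5 days, and Chac1 lies above 0 in all 4, unfilled. No sign of a filled point turns with library size alone.

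In control muscle the level of some genes differed between the days. In Cre- SOL muscles Ppp1r15a had 8.5 and 9.34 FPKM at 2.5 days, 18.4 and 20.3 at 5.5 days and 15.8 and 20 at 8.5 days. All later libraries were above those of 2.5 days. The rise from 2.5 to 8.5 days was 0.96 (SE 0.12, adjusted p = 0.00215 in edgeR), 1 of 9 genes where 3.63% of all genes were called, and no single library ended it. From 2.5 to 5.5 days it was 1.21 (SE 0.13, adjusted p = 9.22e-05 in edgeR), 1 of 9 where 1.86% were called. In Cre- EDL muscles Ppp1r15a had 13.1 and 13.1 FPKM at 2.5 days and 18.8 and 18.8 at 5.5 days, a rise of 0.65 (SE 0.13, adjusted p = 0.0168 in the same edgeR test), 1 of 9 where 2.84% were called. The tests against 5.5 days were chosen after the data were seen, and each day is a separate set of samples, so the day and any batch cannot be told apart. The immediate early genes, which handling of tissue is known to raise, summed in Cre- SOL to 196 to 238 FPKM at 2.5 days, 336 to 351 at 5.5 days and 238 to 282 at 8.5 days. In Cre- EDL they summed to 244 to 268 FPKM at 2.5 days and 301 to 311 at 5.5 days, and their part in the result was not tested. Liver transcripts in Cre- SOL summed to 4.80 to 14.1 FPKM at 2.5 days, 11.3 to 16.4 at 5.5 days and 54.7 to 153 at 8.5 days. Over the same days fibroblast markers summed to 489 to 500, 318 to 322 and 908 to 1087 FPKM. Tendon markers summed to 252 to 292, 254 to 328 and 552 to 745 FPKM. The part of these lists was not tested either.

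From 2.5 to 8.5 days in Cre- EDL, 0 of 9 genes were called, where 0.748% of all genes were called. At an unadjusted p under 0.05 there were 2 of the 9, Ddit3 at -0.61 (SE 0.16) and Sesn2 at -0.74 (SE 0.22), and DESeq2 called Ddit3. Of all 15372 genes, 1859 were under that cutoff. Sesn2 in Cre- EDL was higher at 5.5 than at 8.5 days by 0.76 (SE 0.22, adjusted p = 0.0454 in edgeR), 1 of 9 where 7.14% were called. Chac1 had its highest levels at 5.5 days, 52 and 63.4 FPKM in Cre- EDL and 29.5 and 26.2 in Cre- SOL, without passing against 2.5 days (1.43, SE 0.58, and 1.68, SE 0.60) or 8.5 days (1.28, SE 0.58, and 1.84, SE 0.60). Against 8.5 days in SOL 0 of 9 genes passed, where 10.6% of all genes were called.

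The wider pathway was read from lists around the 10 genes, and its changes in EDL muscles went in both directions. Of 12 amino acid synthesis genes known as ATF4 targets, 4 rose and 5 fell in Cre+ EDL at 2.5 days, where 13.8% of all genes were called higher and 10.2% lower. Psat1, which makes the precursor of serine, had 0.981 and 1.38 FPKM in Cre- and 10.4 and 10.1 in Cre+, a rise of 2.78 (SE 0.31). Mthfd2, Aldh18a1 and Pycr1, enzymes of mitochondrial folate and of proline synthesis, rose by 1.51, 1.56 and 1.45. Gpt2, the mitochondrial alanine transaminase, fell by 2.06 (SE 0.22), from 125 and 114 FPKM in Cre- to 37.8 and 33.9 in Cre+, and Got1, Cth, Psph and Pck2 fell as well. At 8.5 days 2 of the 12 were higher (Psat1 at 1.72 and Pycr1 at 0.82) and 4 lower, Gpt2 at -2.53 among them, where 7.63% of all genes were called higher and 6.5% lower. With library size alone 5 rose and 3 fell at 2.5 days, and without Cre+ replicate 2 the counts were 3 and 3. The median of the list was -0.08 at 2.5 days and -0.17 at 8.5 days.

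Of 10 amino acid transporters, 3 rose in EDL at 2.5 days: Slc7a1, which carries cationic amino acids, by 3.39 (SE 0.49), Slc7a5, which carries large neutral ones, by 1.67 (SE 0.34), and the glycine carrier Slc6a9 by 0.78 (SE 0.19), where 13.8% of all genes were called higher. Slc7a1 had 1.3 and 1.21 FPKM in Cre- and 6.94 and 26.7 in Cre+, higher in the same library as Asns. A link of either gene with the level of OSKM was not tested. The 2 most abundant of the list, Slc38a2 and Slc3a2, were not called. At 8.5 days 2 of the 10 were called higher, Slc7a1 at 1.55 (SE 0.46) and Slc6a9 at 1.04 (SE 0.20), where 7.63% of all genes were, and the call of Slc7a1 ended without Cre- replicate 1 or either Cre+ replicate. Of 12 cytosolic tRNA synthetases only Gars rose at 2.5 days, by 1.15 (SE 0.20), where 13.8% of all genes were called higher. The 2 most abundant, Eprs and Nars, did not pass. At 8.5 days none passed (unadjusted p under 0.05: 0 of 12, and 4588 of all 15372 genes). At 2.5 days 7 of these 12 synthetases were called higher with library size alone, and without Cre+ replicate 1 it was 4.

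**Figure D4:**
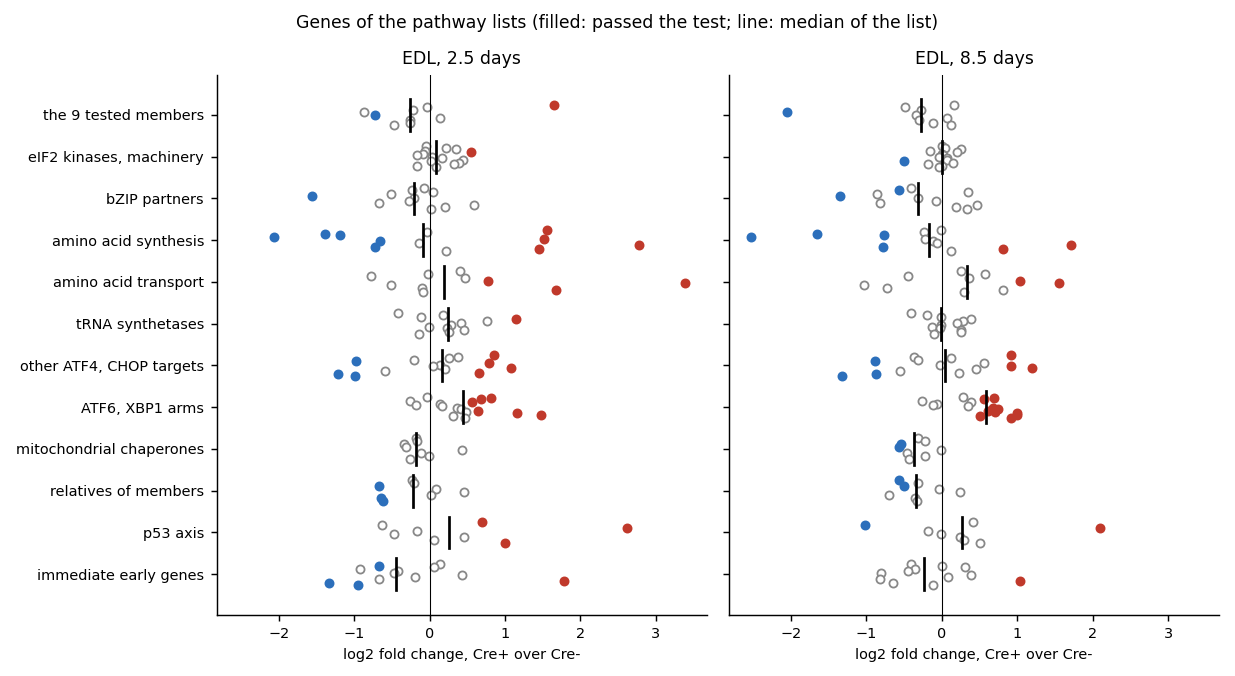
Log2 fold change of Cre+ over Cre- (x axis, log2 units) in EDL muscles at 2.5 days (left) and 8.5 days (right) for each gene of 12 lists (y axis), red where called higher, blue where called lower, open where not called, with a line at the median of the list. Amino acid synthesis spreads from -2.06 to 2.78 at 2.5 days, and the genes of the ATF6 and XBP1 arms lie mainly above 0 with medians of 0.44 and 0.59. With library size alone the medians at 2.5 days of the bZIP partners, amino acid synthesis genes, mitochondrial chaperones, relatives and the 9 members lie above 0.

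Of the machinery that sets off the response, 1 gene was called at each time, where 24% and 14.1% of all genes were. Of 15 eIF2 kinase, eIF2 and eIF2B genes, Eif2b1 rose by 0.55 (SE 0.13) at 2.5 days and Eif2s2 fell by 0.51 (SE 0.15) at 8.5 days, and the others were not called. The call of Eif2s2 was lost with library size alone and without replicate 1 of either genotype. At 2.5 days 5 of the 15 were called higher with library size alone. Of 11 bZIP partners of ATF4, Cebpd fell by 1.56 (SE 0.40) at 2.5 days, where 10.2% of all genes were called lower. Atf5 and Cebpd fell at 8.5 days, by 0.57 and 1.34, where 6.5% were called lower. The most abundant, Nfe2l1, was not called. The call of Cebpd at 2.5 days ended without Cre- replicate 1 or Cre+ replicate 2. At 8.5 days neither call held with library size alone, Cebpd was called on leaving out none of the 4 libraries, and Atf5 was called only on leaving out Cre- replicate 1. Among 8 relatives of the members, Chac2 and the tribbles genes Trib1 and Trib2 fell at 2.5 days, by 0.67, 0.64 and 0.61. At that time 10.2% of all genes were called lower. None of these 3 calls held with library size alone, without Cre+ replicate 2 or without Cre- replicate 2. Of the relatives, Chac2 and Atf5 fell at 8.5 days, where 6.5% were called lower, and neither call held with library size alone. Of 8 mitochondrial chaperones and proteases none passed at 2.5 days (unadjusted p under 0.05: 2 of 8, and 5998 of all 15372 genes). Clpx and Hspa9 fell at 8.5 days by 0.54 and 0.57, where 6.5% of all genes were called lower. These 2 calls were lost with library size alone and without replicate 1 of either genotype.

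Genes of the ATF6 and XBP1 arms of the unfolded protein response, which raise chaperones of the endoplasmic reticulum, were called in 1 direction. Of 16, 6 rose and 0 fell at 2.5 days, and 10 rose and 0 fell at 8.5 days, where 13.8% and 7.63% of all genes were called higher. Pdia6, a disulfide isomerase, rose by 1.16 (SE 0.15) and 1.00 (SE 0.15), from 28.9 and 27.2 FPKM in Cre- to 65 and 93.2 in Cre+ at 2.5 days. Sdf2l1 rose by 1.48 (SE 0.29) and 0.99 (SE 0.28). The abundant Calr, calreticulin, rose by 0.82 and 0.70, and Hspa5, the chaperone BiP, was called at 8.5 days at 0.69 (SE 0.15) and not called at 2.5 days at 0.36 (SE 0.15). Without any 1 of the 4 libraries the counts were 4 to 9 at 2.5 days and 4 to 10 at 8.5 days, and 12 of 16 were called higher at both times with library size alone.

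Of 14 other targets of ATF4 or CHOP, 4 rose and 3 fell at 2.5 days and 3 rose and 3 fell at 8.5 days, where 24% and 14.1% of all genes were called in either direction. With library size alone 7 rose and 1 fell at 2.5 days, and on leaving out a library 1 to 3 rose and 1 to 3 fell. Nupr1, a small stress-induced chromatin protein, rose by 1.08 (SE 0.13) and 1.19 (SE 0.13), and Vegfa, the vascular growth factor, fell by 1.22 (SE 0.17) and 0.87 (SE 0.17). Sqstm1, the most abundant, was not called, and Herpud1 was called higher at 8.5 days, at 0.92 (SE 0.18). In SOL muscles, the OSKM genes apart, Nupr1 was the only gene of these pathway lists that was called, at 2.5 days, by 0.93 (SE 0.13, adjusted p = 0.00796 in edgeR), and at 8.5 days none was. That call ended without Cre+ replicate 1 and without Cre- replicate 2, and Xbp1 was called as well at 2.5 days with library size alone. Of 8 genes of the p53 axis, which shares Sesn2 as a target, 3 rose at 2.5 days (Cdkn1a by 2.61, Zmat3 by 1.01 and Bax by 0.70), where 13.8% of all genes were called higher. At 8.5 days Cdkn1a rose and Ccng1 fell, where 7.63% of all genes were called higher and 6.5% lower. On leaving out a library, the call of Ccng1 held only without Cre- replicate 2. Sesn2 itself was not called, as given above. Of the receptors of the 2 secreted factors, Fgfr1 rose in EDL at 8.5 days by 0.64 (SE 0.14), where 7.63% of all genes were called higher. The call of Fgfr1 was lost without replicate 1 of either genotype. None of the 3 receptor genes that could be tested passed at 2.5 days (unadjusted p under 0.05: 0 of 3, and 5998 of all 15372 genes).

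The genes most alike to each member over the 24 libraries, by Pearson's r of log2 CPM, were Pink1 for Atf4 (0.91), Prkaca for Atf3 (0.89), Tmem265 for Ddit3 (0.92), Cirbp for Trib3 (0.94) and Asb14 for Chac1 (0.92). For the others they were Begain for Asns (0.89), Flnc for Gdf15 (0.93), Nrf1 for Ppp1r15a (0.89) and Lztr1 for Sesn2 (0.89). Members themselves were not searched. The 24 libraries share muscles, days and depth, so these values describe the set and carry no test.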

How the data were processed

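The deposited values were raw counts per gene. According to the methods, the authors used STAR (version 2.5.3a) to align to the mm10 build and HOMER to count uniquely aligned reads in RefSeq exons, and replicates were kept apart. The counts were tested in R 4.3.3 with edgeR 4.0.16 (quasi-likelihood test, TMM, minimum count 10, Benjamini-Hochberg over all genes tested). The 16 libraries of 2.5 and 8.5 days were fitted in 8 groups (15372 genes), and tests with 5.5 days used all 24 libraries (15478 genes). Standard errors were the log2 fold change divided by the root of F. FPKM came from the counts, the deposited exon lengths and the total count. DESeq2 1.42.0, other scalings, filters and fits and each left-out library were the alternatives.

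The members and lists were chosen with earlier results of these data known. All 10 members are named. Of each list, the counts, the 2 genes with the highest mean FPKM and the 2 largest called changes in EDL at 2.5 days set the names by rule. Other called genes were named after their values were seen, and the lists were also read without each library and with other scalings after the data were seen. Deviations of same-numbered EDL and SOL libraries correlated in 6 of 6 pairs (r from 0.173 to 0.445), so the number was used as a block between muscles. Those of Cre+ and Cre- libraries did not (r from -0.169 to 0.0578). Sequences came from RefSeq GRCm38.p6, which shares coordinates with mm10. Scripts were tested on simulated data.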

Additional observations from a re-analysis of the deposited data

How the results depend on the processing

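With 2 libraries a group, the counts of the 9 genes called depend on few libraries. For Cre+ against Cre- in EDL at 2.5 days the count was 2 and became 1 with library size alone, 1 in the fit of the 4 libraries alone and 1 with an absolute log2 fold change over 1, and 0 to 3 on leaving out a library in turn (0 without Cre+ replicate 2, 3 without Cre+ replicate 1). In EDL at 8.5 days it was 1, and 0 to 0 on leaving out any library. In SOL at 2.5 days it was 0, but 1 (Atf3) in the fit of the 4 libraries alone with edgeR and 1 with DESeq2, and in SOL at 8.5 days 0, but 1 (Chac1) with DESeq2 on the 4 libraries. The difference of the change between muscles at 2.5 days was called for 0 genes, but for 1 (Asns) with library size alone, DESeq2, no filter, all 24 libraries or either replicate block, and for 0 to 1 on leaving out a library. EDL against SOL gave 4 in Cre- at 8.5 days (2 to 4 on leaving out a library, 2 without EDL replicate 1), 6 in Cre+ at 2.5 days (3 with a log2 fold change over 1, and 2 to 4 on leaving out a library, 2 without EDL replicate 2) and 4 in Cre+ at 8.5 days (2 to 4, 2 without either EDL replicate or without SOL replicate 2). From 2.5 to 8.5 days in Cre- muscles, DESeq2 called 1 gene in EDL (Ddit3) instead of 0, and a log2 fold change over 1 left 0 in SOL instead of 1. No called value changed sign. Beside Asns and Chac1, the replicate block by number within a day ended the call of Atf3 between muscles in Cre- at 8.5 days (-1.29, adjusted p = 0.0612 in edgeR). It changed no other call. That block also gave same-numbered Cre+ and Cre- libraries of a day a shared term, although their deviations did not correlate (r from -0.169 to 0.0578). The cause of these shifts was not tested. Depth limits Fgf21 and Gdf15.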
